A study of Sus scrofa with 10 samples.

Results

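The genes described here present peptides to T cells in the pig: beta-2-microglobulin (B2M), the class I heavy chains SLA-1 and SLA-2 of the swine leukocyte antigen complex, the peptide transporter subunit TAP1, the class II chains SLA-DRA, SLA-DRB1, SLA-DQA1 and SLA-DQB1, and the invariant chain CD74. Members were the probe sets of the Affymetrix GeneChip Porcine array whose platform annotation gives 1 of these 9 symbols. The annotation gave 28 such probe sets, of which 20 carried a member's symbol alone and 8 were shared with another gene. Of the 9 genes, 8 had a probe set with their symbol alone, among 6765 such genes on the array, and SLA-1 was read only through shared probe sets. Of the 28 probe sets, 21 had a mean log2 intensity of at least 4 and were tested, together with 8 member genes among 4730 genes tested.

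The arrays were hybridised with liver RNA from 10 female backcross pigs of an Iberian x Landrace cross, bred back to Landrace, with 1 array per animal. The 5 animals of the H group and the 5 of the L group came from opposite ends of the first principal component of the traits measured, mainly muscle fatty acid composition, with more polyunsaturated fatty acids in H and more saturated and monounsaturated ones in L. All were kept on the same feed and management, and the labels give no treatment or engineered allele. Pigs born to the same sow were placed in opposite groups, without a list of which animals they are, so kinship stayed outside the tests.

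Class I molecules consist of a polymorphic heavy chain and B2M, and they carry peptides from the cytosol that TAP1 and TAP2 pump into the endoplasmic reticulum. Nearly every nucleated cell makes them. Class II molecules are pairs of an alpha and a beta chain that are guided by the invariant chain CD74 to endosomal compartments, and in the liver they are known mainly from Kupffer cells, dendritic cells, B cells and some endothelial cells. In a piece of whole liver, fewer cells of a type and less RNA per cell cannot be told apart. SLA genes are polymorphic, and how well the probes match the alleles of each animal was not tested.

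B2M has a further role in these animals, because it was used with HPRT1, a purine salvage enzyme, as an endogenous control of the RT-qPCR assays on the same livers. The primers are shown since they are the designed sequences of the study that read a member, and no part of them is marked with capitals.
B2M forward: accttctggtccacactgagttc
B2M reverse: ggtctcgatcccacttaactatcttg
HPRT1 forward: tcattatgccgaggatttgga
HPRT1 reverse: ctctttcatcacatctcgagcaa
The B2M primers are 23 and 26 bases long, and those of HPRT1 21 and 23 bases.

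All 8 measured genes had a lower mean in H than in L, but 0 passed the test. With limma and Benjamini-Hochberg adjustment over all genes, 0 of the 8 were called at an adjusted p under 0.05, as were 0 of the 4730 genes (0.0%) and 0 of the 11756 probe sets (0.0%). At an unadjusted p under 0.05 stood 1 of the 8 member genes, SLA-2, against 2.64% of all genes. The median log2 difference, H minus L, was -0.25 over the 8 genes and -0.04 over all genes, of which 62.8% lay below 0. The same sign in 8 genes is not 8 separate observations, since their levels moved together from animal to animal, as described below.

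**Figure D1:**
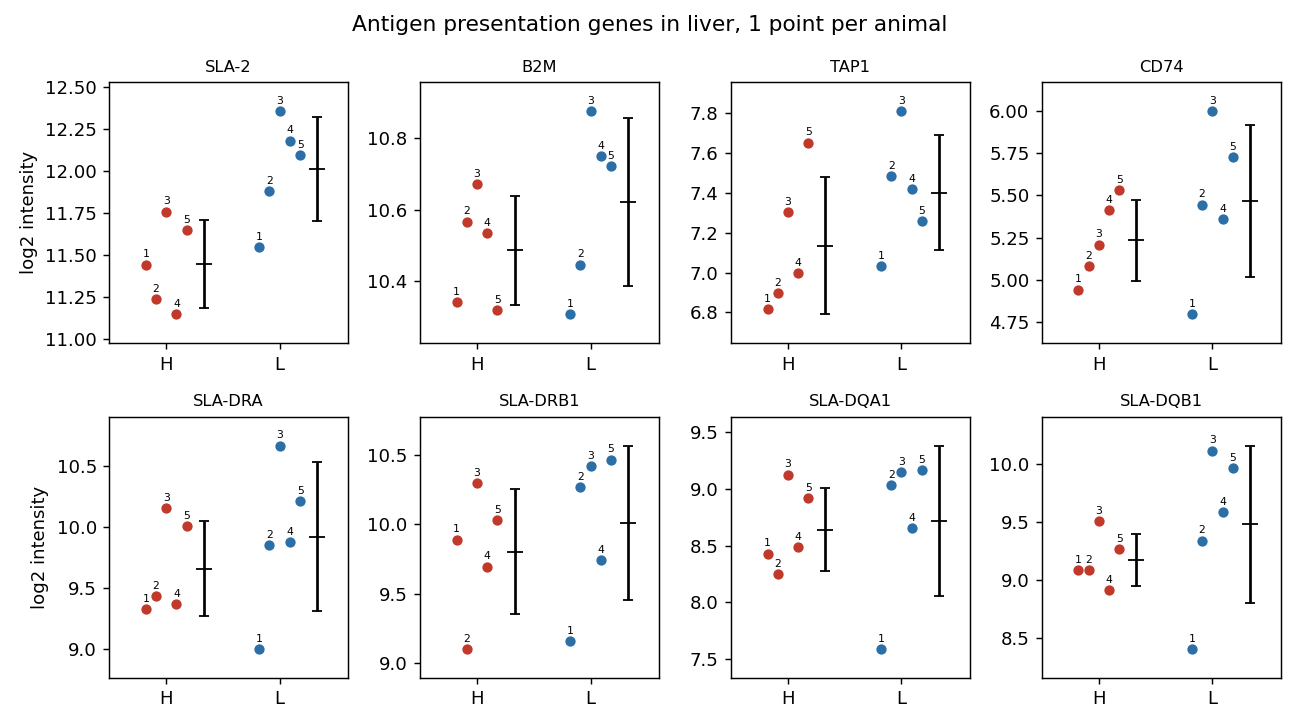
Log2 intensity (vertical axis, a separate range in each panel) of the 8 measured genes in the 5 H animals and the 5 L animals, with the animal's number beside each point and the mean ± SD of the group to its right. The L animals spread more widely than the H animals in all 4 class II chains and CD74, with L1 low and L3 high, and the groups overlap in every panel.

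Among the class I heavy chains, SLA-2 showed the lowest unadjusted p of the 8 member genes. Its log2 intensity was 11.45, 11.24, 11.76, 11.15 and 11.65 in H1 to H5, against 11.55, 11.88, 12.36, 12.18 and 12.10 in L1 to L5. Only L1 lay within the range of the H animals, and the other 4 L animals were above all 5 H animals. The means were 11.45 ± 0.26 in H, against 12.02 ± 0.31 in L (SD, n = 5 each), a log2 difference of -0.57 with a standard error of 0.17 and a 95% confidence interval from -0.94 to -0.19. That is 0.675 times the L level on the linear scale. The unadjusted limma p was 0.00728 and the exact permutation p, two-sided, was 0.0238, where 252 splits allow no p below 0.00794. The limma p adjusted over all genes was 0.985, so the difference was not called.

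Shared probe sets also read these heavy chains, and they are given apart because the annotation gives them more than 1 symbol. The set of SLA-2 alone has 1 symbol by annotation only. It may also bind transcripts of related heavy chains, and which transcripts it reads was not tested. The probe set shared by SLA-2 and SLA-3, another classical heavy chain, was 12.03, 11.77, 12.36, 11.73 and 11.97 in H1 to H5, against 12.01, 12.53, 12.98, 12.74 and 12.77 in L1 to L5. Its log2 difference was -0.64 with a standard error of 0.19 (exact permutation p = 0.0238, limma p adjusted over all probe sets = 0.991). The probe set shared by SLA-1, SLA-2 and LOC100513601, a locus that RefSeq lists under SLA-1 synonyms, averaged 11.28 ± 0.39 in H, against 11.97 ± 0.52 in L (SD, n = 5 each), a difference of -0.69 with a standard error of 0.26 (exact permutation p = 0.0635, limma p adjusted over all probe sets = 0.991). LOC100513601 alone, which is no member, averaged 13.02 ± 0.36 in H, against 13.59 ± 0.40 in L (SD, n = 5 each), a difference of -0.56.

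The remaining shared probe set, of SLA-1 and LOC100513601 (Ssc.13780.11.S1_x_at), did not vary by degrees but took a low or a high value. It was 2.58, 2.52, 2.75, 2.63 and 3.20 in H1 to H5, against 2.36, 2.36, 8.54, 7.86 and 7.87 in L1 to L5. The 5 H animals and L1 and L2 lay between 2.36 and 3.20, close to the lowest value of the table, 2.19, and L3, L4 and L5 were far above it. The gap between the highest low animal and the lowest high animal was 4.66 on the log2 scale, and 13 of the 11756 tested probe sets had a wider gap between neighbouring animals. Its log2 difference of -3.06 had a standard error of 1.25 (unadjusted limma p = 0.0344, adjusted p = 0.991, exact permutation p = 0.167), and it passed the filter only through those 3 animals. A second probe set of SLA-1 and LOC100513601 stood at 2.19 in all 10 animals, and a second one of SLA-1, SLA-2 and LOC100513601 at 2.80.

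**Figure D2:**
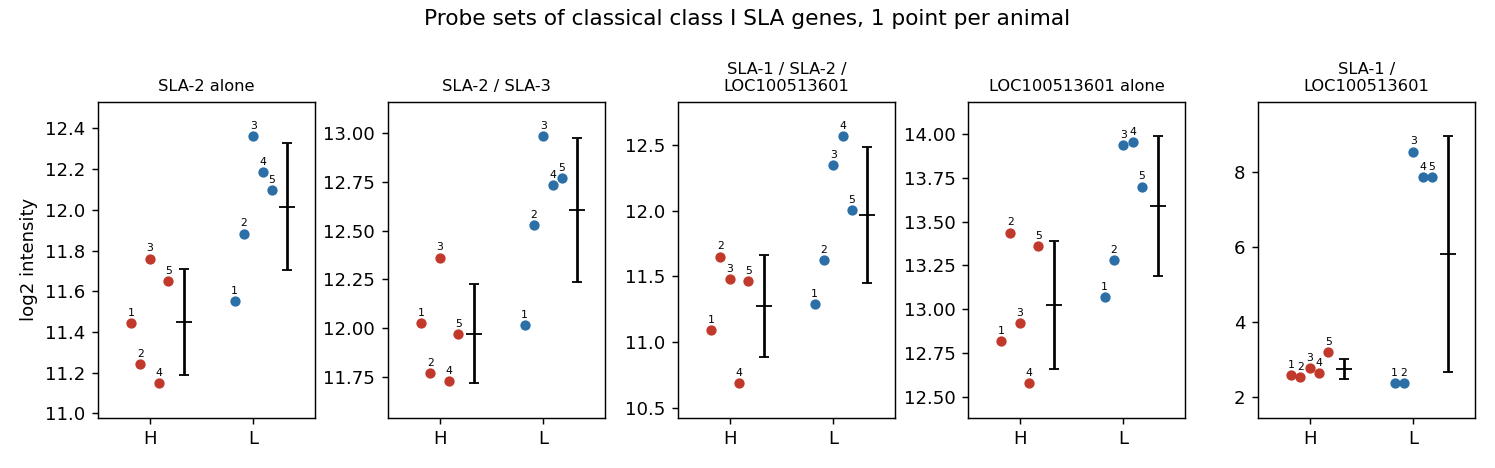
Log2 intensity of 5 probe sets of classical class I heavy chains (vertical axis, a separate range in each panel) in H and L animals, with animal numbers and the mean ± SD of each group. In the first 4 panels the values form a continuous range with L3, L4 and L5 at its top; in the last panel these 3 animals lie at 7.86 to 8.54 and the other 7 at 3.20 or below.

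L3, L4 and L5 were also the 3 highest animals in the other 3 tested class I heavy chain probe sets of members, in 1 of 9 B2M probe sets and in 1 of 7 tested class II probe sets, SLA-DQB1. The trio was taken from the set of SLA-1 and LOC100513601 after its values had been seen, and the heavy chain sets can share target sequence, so nothing is read from these counts. A probe set without a gene symbol, Ssc.16169.1.S1_x_at, stood at 2.19 in the 5 H animals and in L1 and L2, and at 8.98, 8.06 and 8.44 in L3, L4 and L5. It was the only other tested probe set in which these 3 animals lay above the rest by at least 1 on the log2 scale.

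The 3 member heavy chain sets with a continuous range stood at an unadjusted limma p under 0.05, together with 1 of 9 B2M sets, and all 4 had the lower mean in H. Of all probe sets, 3.09% reached that level and 1.77% did so with the lower mean in H. The set of SLA-1 and LOC100513601 was also at that level but is left out of this count, because it passed the filter only through the group where it was high. The heavy chain sets can bind transcripts of the same genes and were read on the same arrays, with correlations over animals of 0.87 and 0.98 between SLA-2 alone and the 2 shared sets with a continuous range, so they are not independent readings. None of the 7 tested class II probe sets, nor TAP1, was at that level. SLA-3 and the non-classical chains had differences nearer to 0 than SLA-2, without a test of that contrast. The classical chain SLA-3 alone was 10.87 ± 0.36 in H, against 11.07 ± 0.22 in L (SD, n = 5 each), a difference of -0.21 with the highest value in H3. Of the non-classical chains, SLA-8 had a difference of -0.41, SLA-6 of -0.16 and SLA-7 of -0.05 (limma p adjusted over all genes = 0.985 for each of the 4).

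**Figure D3:**
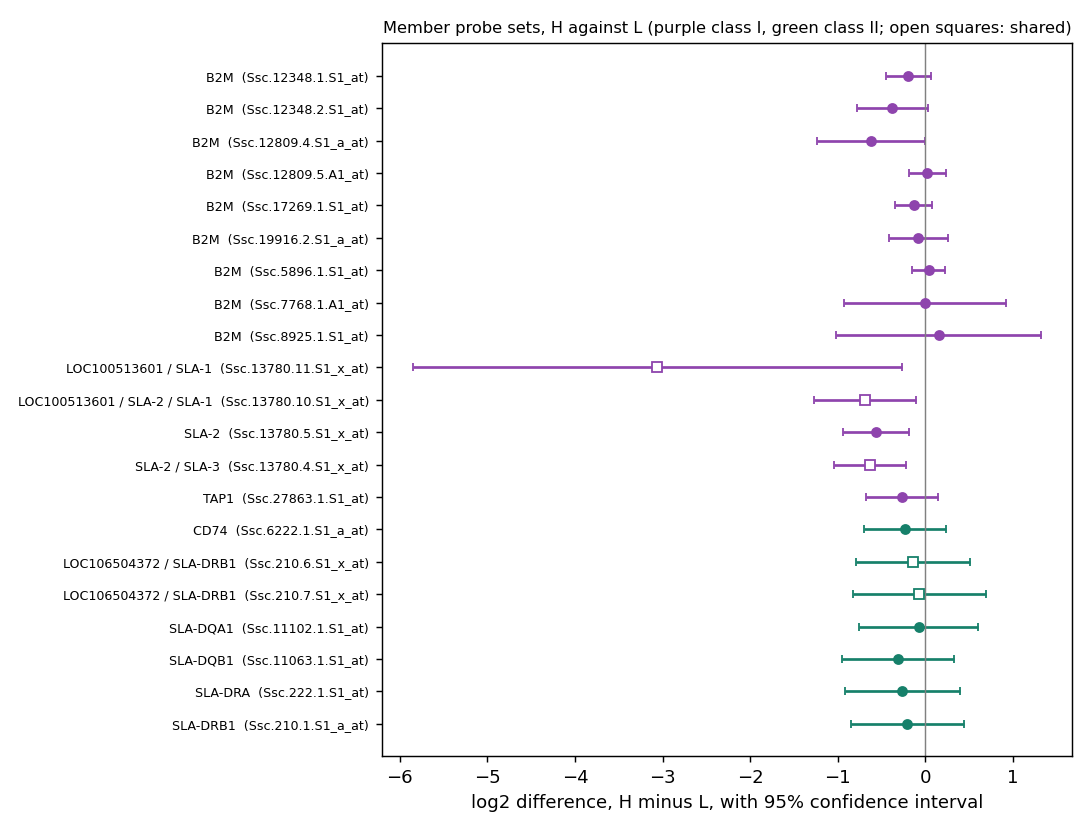
Log2 difference, H minus L, with its 95% confidence interval from limma (horizontal axis) for the 21 tested member probe sets, class I in purple and class II in green, with open squares for shared probe sets. The 3 heavy chain sets with a continuous range lie between -0.57 and -0.69 with intervals below 0 before adjustment, the set of SLA-1 and LOC100513601 at -3.06 passed the filter only through 3 L animals, and the intervals of all 7 class II sets include 0.

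B2M, the light chain common to all class I molecules, averaged 10.49 ± 0.15 in H, against 10.62 ± 0.24 in L (SD, n = 5 each) over its 9 probe sets. By animal the mean was 10.34, 10.57, 10.67, 10.53 and 10.32 in H1 to H5, against 10.31, 10.45, 10.88, 10.75 and 10.72 in L1 to L5. The log2 difference was -0.13 with a 95% confidence interval from -0.41 to 0.14 (limma p adjusted over all genes = 0.985). The groups overlapped, and the spread over the 10 animals was an SD of 0.20, which 58.0% of all tested genes exceeded. Averaging over 9 probe sets can narrow this spread, and the single sets had SDs from 0.11 to 0.88. HPRT1, the other RT-qPCR control, averaged 12.86 ± 0.14 in H, against 12.79 ± 0.22 in L (SD, n = 5 each), a difference of 0.07 with a standard error of 0.12.

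The 9 B2M probe sets, all annotated to B2M alone and all past the filter, did not give the same order of animals. Over the 36 pairs of probe sets, Pearson's r over the 10 animals had a median of 0.09, a lowest value of -0.61 and a highest value of 0.89. The coefficient was negative in 11 pairs and at least 0.7 in 2 pairs. These coefficients describe probe sets on the same 10 arrays, and no test was made of them.

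A block of 3 B2M sets ran together. Ssc.12348.1.S1_at, Ssc.12348.2.S1_at and Ssc.12809.4.S1_a_at had coefficients of 0.89, 0.76 and 0.69 with each other. Their log2 differences were -0.20, -0.38 and -0.62, with unadjusted limma p of 0.117, 0.0679 and 0.0476 and an adjusted p of 0.991 for each. Ssc.12809.4.S1_a_at was 8.79, 8.92, 9.63, 8.97 and 9.22 in H1 to H5, against 8.94, 9.32, 9.79, 10.27 and 10.31 in L1 to L5. With SLA-DRA their coefficients were 0.84, 0.85 and 0.72, and with SLA-2 0.78, 0.78 and 0.85.

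The other 6 B2M sets had coefficients of at most 0.56 with this block and at most 0.50 with each other. Ssc.5896.1.S1_at hardly varied, between 13.19 and 13.46 in H and between 13.08 and 13.40 in L, and its SD of 0.11 was exceeded by 91.7% of all tested probe sets. Ssc.8925.1.S1_at varied most, at 10.95, 12.44, 13.48, 12.41 and 11.10 in H1 to H5, against 11.39, 11.49, 12.70, 11.19 and 12.85 in L1 to L5, with an SD of 0.88 that 1.72% of the probe sets exceeded. Ssc.12809.5.A1_at had a coefficient of -0.60 with SLA-DRA and of -0.75 with SLA-DQA1. RefSeq lists a pair of pig genes under the symbol B2M, and the annotation of all 9 sets points to the same 1 of them. Which transcript or strand each set reads was not tested.

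**Figure D4:**
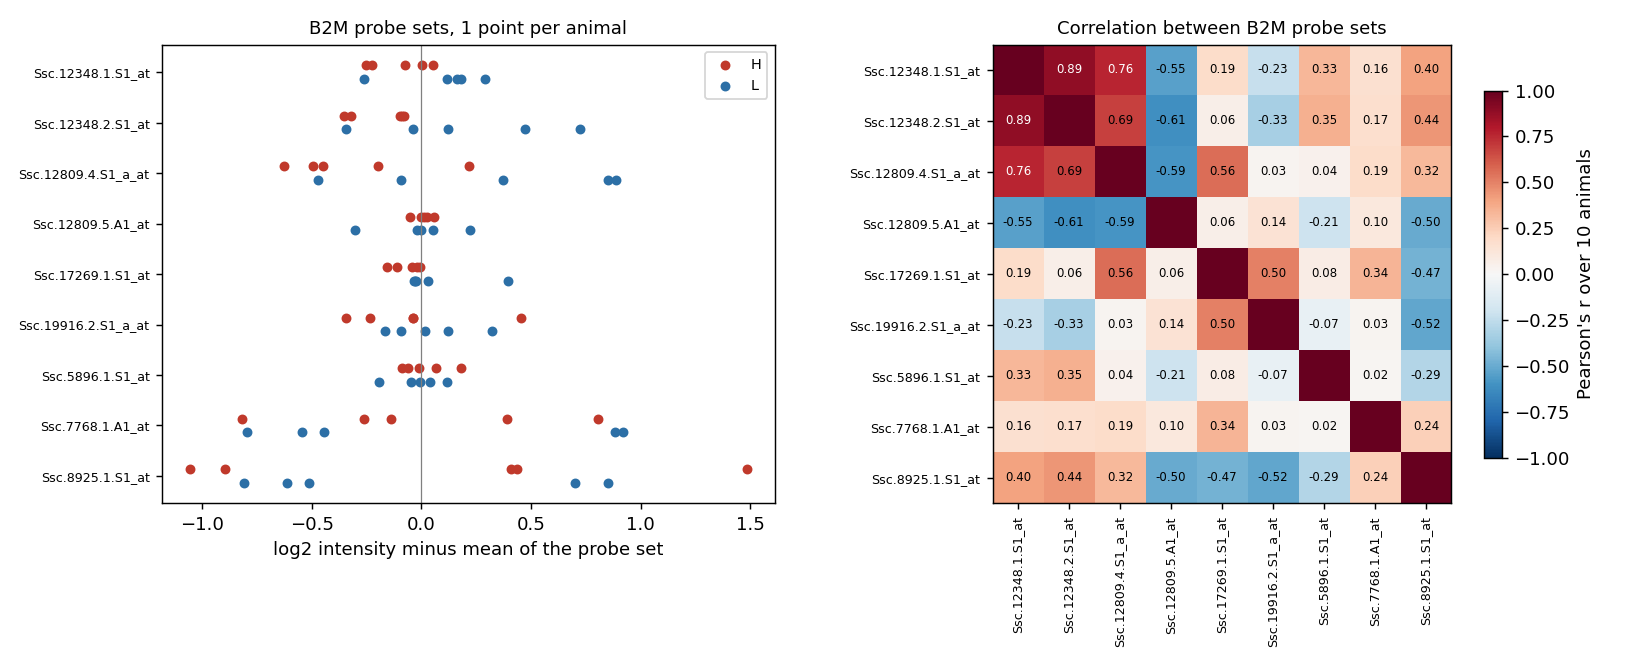
Left, the log2 intensity of each B2M probe set minus its own mean (horizontal axis), with 1 point per animal and H above L in each row; right, Pearson's r over the 10 animals between the 9 sets. The top 3 rows form a block with r of 0.69 to 0.89, and Ssc.8925.1.S1_at at the bottom has the widest spread.

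TAP1, a subunit of the peptide transporter, averaged 7.13 ± 0.34 in H, against 7.40 ± 0.29 in L (SD, n = 5 each). Its values were 6.82, 6.90, 7.30, 6.999 and 7.65 in H1 to H5, against 7.03, 7.49, 7.81, 7.42 and 7.26 in L1 to L5. H5 and L3 were high, and the groups overlapped, with a difference of -0.27 and a 95% confidence interval from -0.68 to 0.14 (limma p adjusted over all genes = 0.985). The other 2 TAP1 probe sets were at the lowest value of the table in 10 and 9 of the 10 animals, so TAP1 rests on Ssc.27863.1.S1_at.

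The class II alpha chain SLA-DRA was 9.33, 9.43, 10.15, 9.37 and 10.01 in H1 to H5, against 8.996, 9.85, 10.67, 9.87 and 10.22 in L1 to L5. Its beta chain SLA-DRB1 was 9.89, 9.10, 10.30, 9.70 and 10.03 in H1 to H5, against 9.16, 10.27, 10.42, 9.74 and 10.47 in L1 to L5. In both genes L1 was among the lowest and L3 and L5 among the highest animals, and the groups overlapped. The log2 differences were -0.26 with a standard error of 0.29 for SLA-DRA and -0.21 with a standard error of 0.29 for SLA-DRB1 (limma p adjusted over all genes = 0.985 for both).

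SLA-DRB1 rests on 1 of its 3 own probe sets, since the other 2 were at or within 0.5 of the lowest value in all 10 animals. It has 3 further probe sets shared with LOC106504372, a locus that RefSeq also lists under DRB1 synonyms. One of these, Ssc.210.7.S1_x_at, followed the unshared set with r = 0.97 and averaged 8.78 ± 0.53 in H, against 8.84 ± 0.67 in L (SD, n = 5 each). Ssc.210.6.S1_x_at had r = 0.63 with the unshared set and a difference of -0.14, and the third was within 0.5 of the lowest value in all animals.

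For the DQ molecule, the alpha chain SLA-DQA1 was 8.43, 8.25, 9.13, 8.49 and 8.92 in H1 to H5, against 7.59, 9.03, 9.14, 8.65 and 9.17 in L1 to L5. The beta chain SLA-DQB1 was 9.09, 9.09, 9.51, 8.92 and 9.27 in H1 to H5, against 8.41, 9.34, 10.12, 9.59 and 9.97 in L1 to L5. L1 was the lowest of the 10 animals in both. The differences were -0.08 with a standard error of 0.30 for SLA-DQA1 (limma p adjusted over all genes = 0.986) and -0.31 with a standard error of 0.29 for SLA-DQB1 (adjusted p = 0.985).

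CD74, the chaperone of class II, was 4.94, 5.08, 5.21, 5.41 and 5.53 in H1 to H5, against 4.80, 5.45, 5.998, 5.36 and 5.73 in L1 to L5. It rests on 1 dim probe set with a mean of 5.35, which the alternative filter of at least 6 left out. L1 was again lowest and L3 highest. The difference was -0.23 with a 95% confidence interval from -0.69 to 0.23 (limma p adjusted over all genes = 0.985).

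Whether SLA-2 differed between H and L by more than the class II genes did was put to a test of its own, added after the data had been seen, in which the class II value of each animal was subtracted from its SLA-2 value. The difference of the differences lay between -0.49 for SLA-DQA1 and -0.25 for SLA-DQB1. Over the 5 class II genes the exact permutation p, two-sided, lay between 0.0476 and 0.198, and after Benjamini-Hochberg adjustment each was 0.198, so a larger difference in class I than in class II was not shown.

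The class II chains had the widest spread over animals of the 8 genes. The SD over the 10 animals was 0.51 for SLA-DRA, 0.49 for SLA-DRB1, 0.51 for SLA-DQA1, 0.50 for SLA-DQB1 and 0.36 for CD74, against a median of 0.22 over all tested genes. For SLA-2, TAP1 and B2M it was 0.40, 0.33 and 0.20, where the B2M value is a mean of 9 probe sets and the others rest on 1. Between 8.08% and 8.99% of all genes had an SD larger than those of the 4 chains. L1 was the lowest animal in 4 of the 5 class II genes and L3 or L5 the highest in all 5, and both L3 and L5 were among the 3 highest animals in every class II gene.

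Many pairs of members varied together over the 10 animals. Of the 28 pairs of the 8 genes, 18 had a permutation p for Pearson's r under 0.05 after Benjamini-Hochberg adjustment over the 28 pairs, and 19 for Spearman's rho. All 10 pairs within class II were among them, with r between 0.73 and 0.94, while the 15 pairs of a class I and a class II gene had r between 0.44 and 0.82 and 7 of them passed. Of the 3 pairs within class I, 1 passed, and of the 7 pairs of B2M 2 passed. The B2M value here is the mean of 9 probe sets that did not run together, so its pairs depend on that choice. Its brightest set, Ssc.12348.1.S1_at, had r between 0.76 and 0.87 with the other 7 genes, while Ssc.12809.5.A1_at had r between -0.75 and -0.18. With the brightest probe set of each gene, 26 of the 28 pairs passed. How many pairs of other genes would pass was not computed, so these counts are not read as particular to the members.

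The closest pairs were the chains of class II. SLA-DRA and SLA-DQB1 had r = 0.94 (permutation p = 9e-05, adjusted p = 0.00154) and rho = 0.92 (p = 0.00051), and SLA-DRB1 and SLA-DQA1 had r = 0.92 (permutation p = 0.00011, adjusted p = 0.00154) and rho = 0.95 (p = 7e-05). With the 2 animals left out that lay farthest from the first gene's median, r was 0.86 and 0.92. SLA-DRA and CD74 had r = 0.87 (permutation p = 0.00158, adjusted p = 0.00885), rho = 0.81 (p = 0.00726) and r = 0.65 without L1 and L3. Between the classes, SLA-2 and SLA-DRA had r = 0.79 (permutation p = 0.0073, adjusted p = 0.0157), rho = 0.76 (p = 0.0142) and r = 0.66 without H4 and L3.

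L3 carried a part of this. Without L3, 6 of the 28 pairs passed, all 6 within class II, and r within class II lay between 0.70 and 0.94. Without L1, 14 pairs passed, 7 of them within class II, with r between 0.63 and 0.93. With each group centred on its own mean, so that the difference between H and L drops out, 20 pairs passed and r within class II lay between 0.72 and 0.93. Groups of 5 are too small for a coefficient of their own, but the order of the H animals was not shared by all members. In the mean of the B2M sets, H5 was the lowest H animal and H3 the highest. CD74 had H5 highest among the H animals, and all 4 class II chains had H3 highest. In the brightest B2M set, H1 was the lowest H animal, at 14.12, and H3 the highest, at 14.42.

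**Figure D5:**
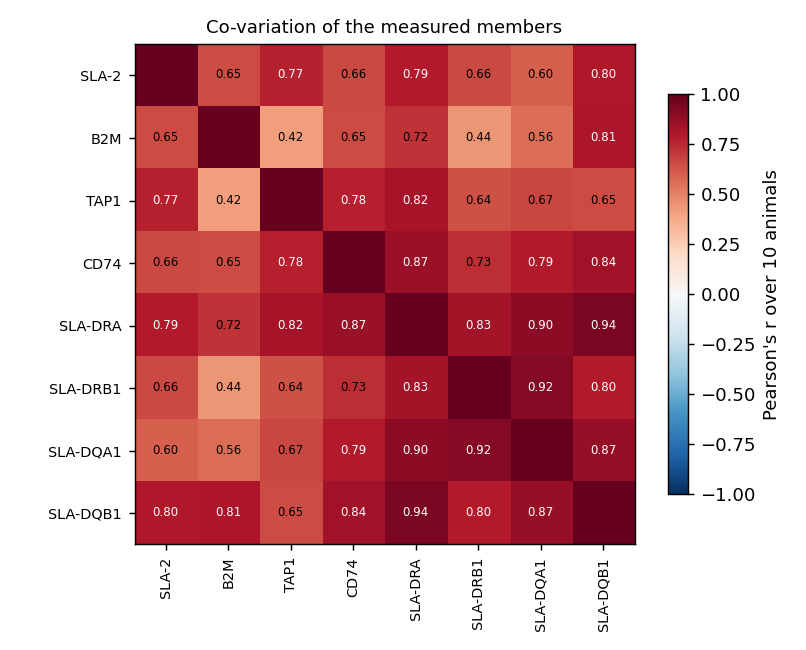
Pearson's r over the 10 animals between the 8 measured members, from log2 intensities, with class I genes first and class II genes after. The lower right block of CD74 and the 4 class II chains has r of 0.73 to 0.94, and the lowest coefficients, 0.42 and 0.44, are those of B2M with TAP1 and SLA-DRB1. B2M is the mean of its 9 probe sets.

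A measure of RNA quality, the level of the array and some cell type markers were set against SLA-DRA and SLA-2, as a gene of each class. The difference between the 3' and 5' probe sets of GAPDH, which grows as RNA is degraded, was between 1.70 and 2.39 in H and between 1.68 and 2.70 in L, with L1 highest at 2.70. Its r with SLA-DRA was -0.74 (permutation p = 0.0119, adjusted p = 0.0431) and its rho was -0.61 (p = 0.067), and r was -0.52 without H2 and L1. The median of all probe sets of an array, between 3.78 and 3.85, had r = 0.79 with SLA-DRA (permutation p = 0.00663, adjusted p = 0.0431) and rho = 0.92 (p = 0.00028), and r = 0.86 without H1 and L5. For SLA-2, r with the GAPDH difference was -0.45 (permutation p = 0.195, adjusted p = 0.35), rho was -0.54 (p = 0.112), and r was -0.28 without H2 and L1. With the array median SLA-2 had r = 0.69 (permutation p = 0.0269, adjusted p = 0.0693), rho = 0.77 (p = 0.0127, adjusted p = 0.0456) and r = 0.70 without H1 and L5. Adjusted p-values here run over 18 relations of SLA-2 and SLA-DRA. The part of the GAPDH difference in the co-variation was not tested. After each array was centred on its median, 17 of the 28 pairs passed. The medians lie too close together for this shift to change the coefficients much, so the part of the array level in the co-variation was not tested by it.

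Of 15 markers of macrophages and Kupffer cells, 9 were measured, and 7 of them had the lower mean in H, as did 62.8% of all genes. Their median log2 difference was -0.19, beside -0.04 over all genes, and 0 were called. CD14 (0.07) and CD5L (0.11) were the 2 with the higher mean in H, and FCER1G had the widest difference, -0.41 (limma p adjusted over all genes = 0.985). The mean of the 9 lay between 8.89 and 9.48 in H and between 9.05 and 9.51 in L. It had r = 0.87 with SLA-DRA (permutation p = 0.00079, adjusted p = 0.0142) and rho = 0.90 (p = 0.00068), and r = 0.94 without H1 and H4. With SLA-2 it had r = 0.75 (permutation p = 0.0155, adjusted p = 0.0464) and rho = 0.81 (p = 0.00718), with r = 0.60 without H1 and H4. The part of cell numbers in either gene was not tested.

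Of the T and NK cell markers 3 of 11 passed the filter, while CD3D, CD3E, CD3G, CD2, CD4 and CD8B did not. The mean of these 3 lay between 4.83 and 5.59 in H and between 5.08 and 5.64 in L. With SLA-DRA it had r = 0.76 (permutation p = 0.012, adjusted p = 0.0431) and rho = 0.73 (permutation p = 0.0199, adjusted p = 0.0598), so rho did not pass after adjustment. With SLA-2 it had r = 0.77 (permutation p = 0.0096, adjusted p = 0.0431) and rho = 0.81 (permutation p = 0.00686, adjusted p = 0.0323). Without H2 and L3 these r were 0.68 and 0.58. Of the B and plasma cell markers only JCHAIN of 8 was measured, between 9.32 and 10.29 in H and between 9.11 and 11.37 in L, with r = 0.33 with SLA-DRA (permutation p = 0.351, rho = 0.22) and r = -0.18 without L2 and L3. Of 10 endothelial markers 4 were measured, with a mean between 7.51 and 8.09 in H and between 7.27 and 8.23 in L and r = 0.56 with SLA-DRA (permutation p = 0.0926, adjusted p = 0.185, rho = 0.55), or 0.73 without L4 and L5. Neither relation passed over the 10 animals, nor did those of the cholangiocyte and stellate cell markers, and of 7 dendritic cell markers none passed the filter. The mean of all 10 hepatocyte markers lay between 14.79 and 14.96 in H and between 14.86 and 14.93 in L. Its r was 0.08 with SLA-DRA (permutation p = 0.825, rho = 0.15) and 0.17 with SLA-2 (permutation p = 0.643, rho = 0.25), and 0.43 and 0.54 without H2 and H5.

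Among all 4729 other genes, those with a pattern over the 10 animals most like that of SLA-DRA, by Pearson's r, were CELF2 (0.97), TLR4 (0.94), SLA-DQB1 (0.94), GMFG (0.93) and VAV1 (0.93). SLA-DQA1 ranked 15, CD74 22, SLA-DRB1 40 and TAP1 45. For CD74 the 5 nearest genes were INTS13 (0.97), PSMD8 (0.93), CYP2C42 (0.91), SRGN (0.91) and TBC1D1 (0.91), and SLA-DRA ranked 16. These ranks are descriptions over the same 10 arrays.

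The class I genes had other neighbours. For B2M, as the mean of its 9 probe sets, the nearest were ATP6V1E1 (0.95), TXNIP (0.94), ARFIP1 (0.91), GP91-PHOX (0.90) and SSR4 (0.90), with SLA-DQB1 at rank 50 and SLA-2 at rank 400. For TAP1 they were RAB3D (0.96), ERP29 (0.94), STOML2 (0.93), UCHL3 (0.93) and PPIH (0.93), with SLA-DRA at rank 27 and SLA-2 at rank 58. For SLA-2, added after its values had been seen, they were PTGS1 (0.92), BCL7C (0.92), ETV5 (0.92), CCL19 (0.90) and RAB35 (0.88), with SLA-DQB1 at rank 26 and TAP1 at rank 42.

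The wider pathways gave no called gene in H against L. Both lists hold the members themselves. Of 25 class I pathway genes 15 were measured, and all 15 had the lower mean in H, as did 62.8% of all genes. Their median log2 difference was -0.14, beside -0.04 over all genes. At an unadjusted p under 0.05 stood 1, the member SLA-2, against 2.64% of all genes. The 3 with the widest differences were SLA-2, SLA-8 and TAP1, given above. Of 21 class II pathway genes 13 were measured, 12 with the lower mean in H and 1 with the higher, a median of -0.18 and 0 at an unadjusted p under 0.05, and SLA-DQB1, SLA-DRA and CD74 differed most. CIITA, the transcriptional switch of class II, and SLA-DOA, a modulator of peptide loading, were under the filter.

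A list of interferon and STAT genes holds signalling genes that control both classes and targets that interferon induces beside them. Of 15 listed, 11 were measured, 6 with the higher and 5 with the lower mean in H, with a median difference of 0.01. The interferon gamma receptor chain IFNGR1 averaged 7.62 ± 0.12 in H, against 7.77 ± 0.18 in L (SD, n = 5 each), and the transcription factor IRF1 8.14 ± 0.20 in H, against 8.25 ± 0.06 in L (SD, n = 5 each). The chemokine CXCL9, which interferon gamma induces, averaged 7.97 ± 0.59 in H, against 7.88 ± 0.38 in L (SD, n = 5 each), a difference of 0.09 (limma p adjusted over all genes = 0.985 for each of these genes).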

How the data were processed

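The arrays were scanned by the authors with GCOS, then background-corrected and normalized with GCRMA in R. RMA also appears in the submitters' processing notes, and tool versions were not given in the sources used here. In the deposited table stand log2 intensities of 24123 probe sets on 10 arrays, used as deposited after 124 control probe sets were left out. Its lowest value, 2.19, stands for no signal above background, so differences of dim probe sets are understated. Array data give no depth, and the number of arrays limits the precision.

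Probe sets were named by the platform annotation, with symbols updated by Entrez ID where the name table held it (10069 with 1 symbol, 198 with several, 13732 with none). A mean of at least 4 was required for a test, and a gene is the mean of those with its symbol alone. H and L, 5 animals each as the labels name them, were compared by limma (version 3.58.1, R 4.3.3, two-sided, no covariate, Benjamini-Hochberg adjustment, threshold 0.05, self-test on simulated data), which gave standard errors and 95% intervals. Kinship was not modelled. Correlations used Python 3.11.15, numpy 2.4.6 and scipy 1.17.1, with 100000 permutations, or exact enumeration over 9 animals. Named genes are all members, the 5 genes most like B2M, SLA-DRA, CD74 and TAP1, and in each pathway list those past the threshold and the 3 with the widest difference. Other names (LOC100513601, SLA-3, SLA-6, SLA-7, SLA-DMA, SLA-DMB, SLA-DOA, CIITA, PSMB8, the cell markers and the neighbours of SLA-2) were chosen after their values had been seen. The members and lists were chosen with earlier results of these data known. The alternatives were other filters, quantile normalization, median centring, array weights, the GAPDH difference as covariate, the animal number as block, another prior, other ways to combine probe sets and leaving out each animal. Gene names were checked against RefSeq of Sscrofa11.1, a later assembly than the study's, so no coordinates are given.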

Additional observations from a re-analysis of the deposited data

Results flagged for a closer look

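In 2 of 44 groups of 5 values looked at, an animal lay apart from the other 4, with a gap to its nearest neighbour of more than 0.71 of the group's range. Chance alone flags about 1 in 20 such groups. The B2M probe set Ssc.17269.1.S1_at was 9.57 in L4, against 9.14 to 9.20 in the other 4 L animals. The probe set Ssc.210.6.S1_x_at, shared by SLA-DRB1 and LOC106504372, was 5.11 in H4, and 5.85 to 6.05 in the other H animals.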

How the results depend on the processing

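Under every alternative, 0 member genes and 0 member probe sets passed the adjusted threshold. The 542 refitted log2 differences kept their sign or changed it within 1 standard error, a change that was not counted as a turn. The log2 difference of SLA-2 stayed between -0.68 and -0.48, with an unadjusted limma p between 0.00135 and 0.0196 and an adjusted p between 0.794 and 1.0. The member probe sets at an unadjusted p under 0.05, 5 with that of SLA-1 and LOC100513601, were 3 with no filter on the mean, and between 2 (without H1, H4, L3 or L4) and 9 (without L1) when an animal was left out. With the GAPDH difference as covariate they were 7, beside 415 of all 11756 probe sets. The 7 include the B2M sets Ssc.12348.1.S1_at and Ssc.12348.2.S1_at, with unadjusted limma p of 0.0151 and 0.0241. Several of them read the same genes. Of all 11756 probe sets, 363 were at that level in the main fit and 417 without L1. Without H1, H4, L3 or L4 there were 266, 368, 280 and 237, and with no filter 461 of 23999. The 1 member gene at that level became 2 when shared probe sets were counted with the member, beside 126 of all 4731 genes. The second was SLA-1, whose value there includes the set of SLA-1 and LOC100513601 that passed the filter only through L3, L4 and L5, so nothing is read from it. Leaving out an animal gave between 1 and 3 member genes, with 2 without H5 and 3, SLA-2, SLA-DQB1 and CD74, without L1. Of all 4730 genes, 125 were at that level in the main fit, 124 without H5 and 163 without L1. Without L1, the difference was -0.58 for SLA-DQB1, -0.49 for SLA-DRA and -0.36 for SLA-DQA1. Without L3 it was -0.08 for SLA-DRA, -0.10 for CD74, -0.15 for SLA-DQB1, -0.17 for TAP1 and -0.07 for B2M. For SLA-DRB1 it was -0.03 without H2, for SLA-DQA1 0.04 without L5 and for B2M -0.01 with the median over its probe sets. The 18 correlated pairs were between 6 (without L3) and 21 (without H5) when an animal was left out, and between 17 and 26 under the other alternatives. The 26 came with the brightest probe set of each gene, a choice that changes only B2M among the members. The cause of these shifts was not tested. H and L animals share numbers, and the deviations of same-numbered animals had r of 0.12, -0.22, -0.03, 0.39 and 0.04. The closest L animals of H1 to H5 were L2, L1, L5, L4 and L2. Such coefficients cannot tell whether animals of the same number are kin, and this was not tested. With the animal number as a replicate block, 0 member genes and 0 member probe sets passed the adjusted threshold. In that fit 6 member probe sets and 1 member gene had an unadjusted p under 0.05, beside 393 of all 11756 probe sets and 140 of all 4730 genes.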

Other observations

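PSMB8, a catalytic subunit of the immunoproteasome, which cuts proteins into peptides for class I, lies next to TAP1 in RefSeq's order of genes and was under the filter. It was chosen after its values had been seen. Its log2 intensity was 3.03, 4.11, 3.44, 2.97 and 3.42 in H1 to H5, against 2.89, 3.48, 5.55, 5.23 and 3.35 in L1 to L5. L3 and L4 were the highest animals and the groups overlapped, with an exact permutation p, two-sided, of 0.325.

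In the class II pathway, and also chosen after the values had been seen, SLA-DMA, which helps to load peptides onto class II, had probe sets that differed in spread. Ssc.13777.1.S1_at was 5.98, 6.11, 6.32, 5.595 and 5.80 in H1 to H5, against 4.76, 6.76, 6.29, 6.66 and 6.09 in L1 to L5, while Ssc.13777.2.S1_at lay between 11.74 and 12.34 in H and between 11.91 and 12.58 in L. SLA-DMB, its partner chain, averaged 7.03 ± 0.30 in H, against 7.02 ± 0.60 in L (SD, n = 5 each), with L1 lowest at 6.002.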
